A study of Mus musculus with 4 samples.

Results

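The genes described here are 7 receptors with which macrophages take up material from their surroundings: Lyve1, Stab1, Mrc1, Cd36, Folr2, Cd163 and Msr1. They form a given list of names, and all 7 were found among the 27998 gene identifiers of both count tables. Each was followed per cell through the immune cells of embryonic mouse pancreas at embryonic day 15.5, profiled by droplet single-cell RNA sequencing (10x Genomics), in which every captured transcript is counted once through its molecular identifier (UMI).

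The design had 2 groups, with 1 library each that was sequenced in 2 technical runs. The control embryos were OGTflox/flox, labelled WT although they carry the floxed alleles, and their cells were sorted on E-cadherin GFP. The other library, labelled OGT KO, came from PdxCre;OGTflox/flox;CAG GFP embryos and was sorted on endogenous GFP. Ogt is the O-GlcNAc transferase, which modifies many nuclear and cytoplasmic proteins, and the Pdx1 promoter drives Cre in pancreatic epithelium. The sort therefore differed together with the genotype, the number of embryos is not given in the sources used here, and no difference between the libraries could be tested. All intervals below are 95% intervals that cover counting error only.

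Both libraries were labelled as pancreatic epithelial cells, and the data of both departed from that label, most in the control. Of 920 control cells kept, 807 (87.7%) had the profile of leukocytes and 105 that of epithelium. Of 556 kept cells of the knockout-labelled library, 81 (14.6%) were leukocyte-like and 267 epithelial-like. Its other cells were in mesenchyme-like clusters of 106, 22 and 14 cells and a mesothelium-like cluster of 66. No cell barcode was shared between the libraries. Ogt stood at 68.7 counts per 1000000 UMIs (CPM) in control macrophage-like cells and at 90.5 CPM in those of the knockout-labelled library, from 471 and 28 UMIs, and at 57.1 against 37.2 CPM in epithelial-like cells. Over all cells, depth was 11973979 UMIs in 941 control barcodes (median 10756) and 11064540 UMIs in 617 barcodes of the knockout-labelled library (median 15367).

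Scavenger receptors are surface proteins that bind many unrelated ligands, among them modified lipoproteins, aged glycoproteins and dying cells, and carry them into endosomes and lysosomes. Tissue-resident macrophages that arise before birth are known for high levels of several of them, and Lyve1, Mrc1 and Folr2 are often used as their markers. Lyve1, Stab1, Mrc1 and Cd36 are also made by endothelial cells, so endothelial markers are given beside their levels below.

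The 7 genes are scattered over the genome. In GENCODE M21 (GRCm38, the same build as mm10), Lyve1 lies on the minus strand of chromosome 7 from 110850607 to 110863239. Folr2 lies on the same strand of chromosome 7 from 101839988 to 101857194. Mrc1 is on the plus strand of chromosome 2 from 14229392 to 14332057, and Stab1 on the minus strand of chromosome 14 from 31139013 to 31168641. Cd36 occupies the minus strand of chromosome 5 from 17781690 to 17888801, Cd163 the plus strand of chromosome 6 from 124304656 to 124330527, and Msr1 the minus strand of chromosome 8 from 39581685 to 39642673. All are protein-coding, and the longest transcripts hold between 6 exons (Lyve1, Folr2) and 69 (Stab1). Stab1 overlaps the protein-coding Nt5dc2 on the opposite strand, and Folr2 overlaps an antisense gene (Gm10602) and a processed pseudogene (Gm45319). Whether the counting used strand is not given in the sources used here, so reads of these overlaps cannot be assigned with certainty.

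Because several of the genes were high in the same immune cells, the 250 bases before the start of each are shown from RefSeq (GRCm38.p6), which had entries for 5 of the 7 genes, with 2 starts for Folr2. Capitals mark matches on either strand to 3 motifs of macrophage transcription factors: GAGGAA (a core bound by PU.1, reading TTCCTC on the other strand), TGCTGA (a MAF half-site) and TGANTCA (the AP-1 site). TGANTCA and TGCTGA can share bases, and no printed pair of matches did. The windows are chr2:14229164-14229413 (plus strand) for Mrc1, chr14:31168642-31168891 (minus) for Stab1, chr5:17835897-17836146 (minus) for Cd36, chr7:101857191-101857440 and chr7:101845332-101845581 (both minus) for the 2 Folr2 starts, and chr6:124304401-124304650 (plus) for Cd163. The RefSeq starts need not be the ends of the GENCODE spans given above: the Cd36 window and that of the second Folr2 start lie inside those spans, and the Mrc1 and first Folr2 windows reach a few bases into them. Each is printed 5′ to 3′ on the strand of its gene.
Mrc1: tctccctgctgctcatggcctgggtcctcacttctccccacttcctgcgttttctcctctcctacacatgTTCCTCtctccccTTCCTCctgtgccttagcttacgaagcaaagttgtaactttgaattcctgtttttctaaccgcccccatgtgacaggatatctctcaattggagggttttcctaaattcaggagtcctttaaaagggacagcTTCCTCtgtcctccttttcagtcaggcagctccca
Stab1: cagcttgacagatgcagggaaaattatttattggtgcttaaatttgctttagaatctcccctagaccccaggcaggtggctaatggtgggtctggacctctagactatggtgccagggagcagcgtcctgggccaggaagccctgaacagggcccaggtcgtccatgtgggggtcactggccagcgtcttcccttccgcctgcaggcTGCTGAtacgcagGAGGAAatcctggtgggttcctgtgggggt
Cd36: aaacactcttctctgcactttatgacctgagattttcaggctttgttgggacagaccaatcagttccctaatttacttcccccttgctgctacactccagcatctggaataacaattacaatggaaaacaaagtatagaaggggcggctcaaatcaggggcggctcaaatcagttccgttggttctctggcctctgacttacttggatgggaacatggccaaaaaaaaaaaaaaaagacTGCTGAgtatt
Folr2, first start: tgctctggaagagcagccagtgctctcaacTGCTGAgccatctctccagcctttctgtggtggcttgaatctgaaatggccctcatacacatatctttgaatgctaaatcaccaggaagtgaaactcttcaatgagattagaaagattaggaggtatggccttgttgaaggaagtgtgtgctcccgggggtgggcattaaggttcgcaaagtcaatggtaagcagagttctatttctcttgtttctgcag
Folr2, second start: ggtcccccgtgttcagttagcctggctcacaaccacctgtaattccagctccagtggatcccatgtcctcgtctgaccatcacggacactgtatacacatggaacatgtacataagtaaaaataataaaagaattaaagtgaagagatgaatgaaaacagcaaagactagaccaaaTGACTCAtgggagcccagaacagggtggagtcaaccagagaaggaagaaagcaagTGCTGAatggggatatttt
Cd163: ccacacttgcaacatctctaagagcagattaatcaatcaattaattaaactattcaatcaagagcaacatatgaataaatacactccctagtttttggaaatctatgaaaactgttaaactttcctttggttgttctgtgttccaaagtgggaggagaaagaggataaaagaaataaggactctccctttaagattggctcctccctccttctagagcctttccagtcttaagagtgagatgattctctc

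Mrc1 held 3 matches to GAGGAA, beginning 180, 167 and 35 bases before its start, and Stab1 held 1 at 30 bases. TGCTGA was found in Stab1 (43 bases before the start), in Cd36 (11) and before both Folr2 starts (220 and 19). The bases checked after the Cd36 start were in no GENCODE transcript of that gene, unlike those after the other starts, so its distance rests on the RefSeq start alone. The second Folr2 start also had the only TGANTCA, at 74 bases, and the Cd163 window held none of the 3. Among all 32851 promoter windows of this length, 23.3% held GAGGAA, 16.1% TGCTGA and 6.75% TGANTCA. The matches describe letters and not bound sites.

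To follow the receptors without using them, leukocyte-like cells of each library were clustered on other genes and named from marker lists that held none of the 7. In the control library 6 clusters with 580 cells (71.9% of the leukocyte-like cells) were macrophage-like. They are called here by genes among the 10 that led them. The Ednrb cluster (132 cells) had Pyy, Lyve1, Rbp4 and Col1a1 first among its 10 leading genes. It is named for Ednrb, the endothelin B receptor, which was further down the same 10 together with Gas6, a bridge between dying cells and TAM receptors, because most of the Pyy, Rbp4 and Col1a1 UMIs came from a few cells. The Hmox1 cluster (107 cells) was led by Slc40a1, Vcam1 and Hmox1, genes of haem and iron handling and adhesion. The Olfml3 cluster (84 cells) had Olfml3 and Tmem119 in front, and the Isg15 cluster (105 cells) interferon-response genes. The last 2 were dividing cells, led by Cenpf (77 cells) and by Tk1 (75 cells). A cluster of 121 cells was Ly6c2 monocyte-like, and clusters of 64 and 42 cells stayed unnamed because markers of neutrophils or dendritic cells were among their leading genes.

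All 16 macrophage markers had UMIs in every macrophage-like cluster, and their summed level ran from 11240 CPM in the Isg15 cluster to 26147 CPM in the Hmox1 cluster. The Isg15 cluster also carried 3644 CPM of Ly6c2 monocyte markers, against 6660 CPM in the monocyte-like cells and 355 CPM in the Ednrb cluster. Its Ccr2 level, the receptor by which monocytes leave the marrow, was 750 CPM, close to the 964 CPM of the monocyte-like cells.

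Lyve1, a hyaluronan-binding receptor best known from lymphatic vessels, had the widest range of the 7 over the macrophage clusters. Range is taken here as the ratio of the highest to the lowest level. The Lyve1 level was 1099 CPM (interval 1043 to 1156, 1459 UMIs) in the Ednrb cluster, 640 CPM in the Tk1 and 446 CPM in the Cenpf dividing cluster, and 239 CPM (211 to 270) in the Hmox1 cluster. These 4 clusters did not overlap in their intervals. The Isg15 and Olfml3 clusters followed at 53.0 CPM (41.0 to 67.4) and 52.2 CPM (38.4 to 69.4), which cannot be ranked against each other. The monocyte-like cells had 35.4 CPM (25.7 to 47.5), and control epithelial-like cells, which should not make the transcript, carried 35.7 CPM (27.8 to 45.1). The monocyte-like level was thus that of the background in this library, a ratio of 0.992 (0.664 to 1.47). Within the Ednrb cluster, 124 of 132 cells had at least 1 Lyve1 UMI, with a median cell at 913 CPM and the highest at 3675 CPM.

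Stab1 encodes stabilin-1, a scavenger receptor that clears modified proteins. It reached 1360 CPM (1298 to 1424) in the Ednrb cluster and 1044 CPM (985 to 1107) in the Hmox1 cluster. The dividing clusters had 792 and 733 CPM with overlapping intervals, the Olfml3 cluster 390 CPM (350 to 433) and the Isg15 cluster 205 CPM (181 to 232). Unlike Lyve1, Stab1 therefore stayed well above the epithelial-like level of 132 CPM (117 to 149) in the Olfml3 cluster, at 2.95 times that level (2.51 to 3.48). Every one of the 132 cells in the Ednrb cluster had a Stab1 UMI. In the monocyte-like cells the level was 154 CPM (133 to 177), 1.16 times the epithelial-like level (0.960 to 1.41).

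Mrc1, the mannose receptor, binds mannose-ended glycoproteins and collagen fragments. Its level was highest in the Ednrb cluster with 1208 CPM (1150 to 1269), followed by the Tk1 dividing cluster with 861 CPM (807 to 916). The Hmox1 and Cenpf clusters had 691 and 649 CPM with overlapping intervals. The Olfml3 cluster had 271 CPM (238 to 307) and the Isg15 cluster 168 CPM (146 to 192), 3.22 and 1.99 times the epithelial-like level of 84.2 CPM (71.8 to 98.0). The monocyte-like cells, at 69.2 CPM (55.3 to 85.5), did not exceed that background.

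Cd36, a receptor for long-chain fatty acids and oxidised lipoproteins, had another order. The Hmox1 cluster (204 CPM, 178 to 232) and the Ednrb cluster (200 CPM, 176 to 225) shared the top, and their ratio was 0.979 (0.816 to 1.18). The dividing clusters came next with 116 and 97.8 CPM. In the Olfml3 and Isg15 clusters the levels of 22.2 CPM (13.6 to 34.3) and 20.9 CPM (13.6 to 30.6) had ratios to the epithelial-like level (13.8 CPM) whose intervals include 1. Cd36 was therefore not distinguishable from background in those 2 clusters at this depth, nor in the monocyte-like cells at 12.9 CPM.

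Folr2, the folate receptor beta, is a lipid-anchored protein that takes up folates. The Ednrb cluster had 320 CPM (290 to 352), the Tk1 cluster 225 CPM (198 to 254), the Hmox1 cluster 186 CPM (162 to 214) and the Cenpf cluster 176 CPM (152 to 202). The last 3 overlap as neighbours, so only the lead of the Ednrb cluster is clear of counting error. The Olfml3 cluster stood at 48.9 CPM (35.5 to 65.6), 1.84 times the epithelial-like level (1.20 to 2.81), and the Isg15 cluster at 32.9 CPM, a ratio of 1.24 (0.803 to 1.90).

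Cd163 takes up haemoglobin bound to haptoglobin, and it had the fewest UMIs of the list. Of 93 UMIs in the macrophage-like cells, 49 were in the Ednrb cluster (36.9 CPM, 27.3 to 48.8) and 19 in the Hmox1 cluster (17.4 CPM, 10.5 to 27.1). These UMIs were concentrated: 17 of 132 cells of the Ednrb cluster had any, and 5 cells held 59.2% of them. No other macrophage-like cluster had more than 8 Cd163 UMIs.

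Msr1, the class A scavenger receptor for modified low-density lipoprotein and bacterial surfaces, had the narrowest range of the 7 over these clusters, again as a ratio. It ran from 166 CPM in the Tk1 dividing cluster (143 to 191) and 165 CPM in the Ednrb cluster (144 to 188) through 118 CPM in the Hmox1 cluster to 98.9 CPM in the Olfml3 and 87.5 CPM in the Isg15 cluster. It was also the only one of the 7 that was clearly above background in the monocyte-like cells, where its 57.1 CPM (44.6 to 72.1) was 3.73 times the epithelial-like level (2.40 to 5.93). The unnamed clusters had 66.2 and 72.6 CPM.

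**Figure D1:**
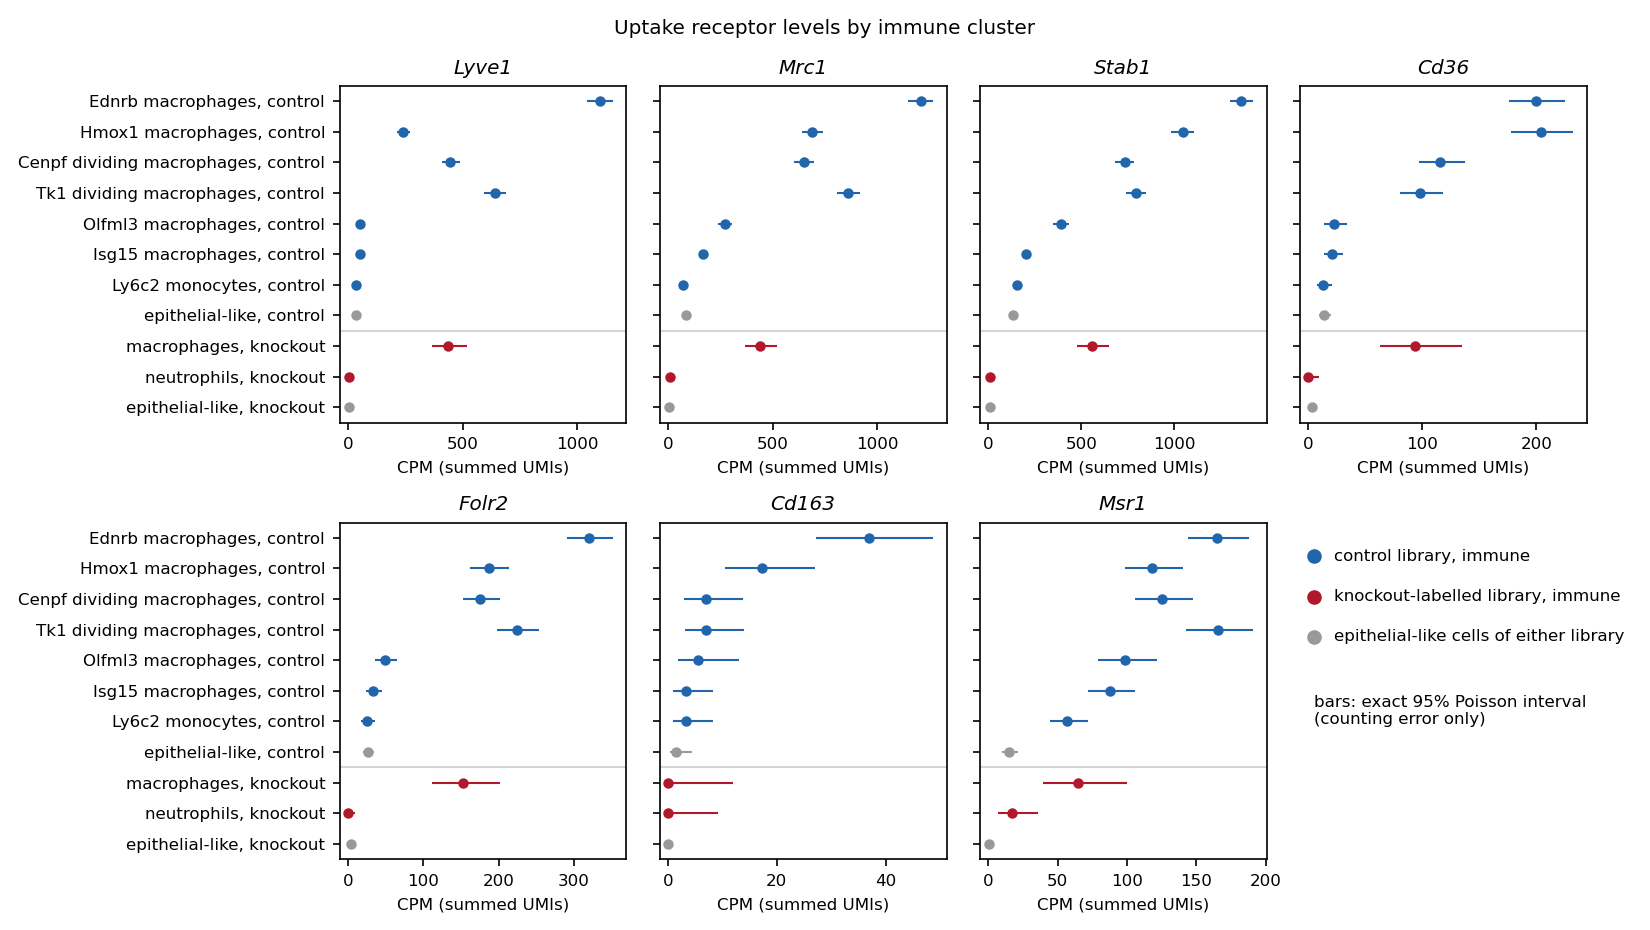
Summed level (CPM) of each of the 7 receptor genes by cluster, 1 panel per gene with its own axis; bars are exact 95% Poisson intervals (counting error only), the grey line separates the libraries, and "knockout" stands for the library labelled OGT KO. Lyve1 falls from 1099 CPM in the Ednrb cluster to 35.4 CPM in monocyte-like cells, while Msr1 falls from 165 to 57.1 CPM and keeps a gap to the epithelial-like cells.

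RNA of other cells was present beside these levels. In the Ednrb cluster, Pyy, a peptide hormone of endocrine cells, had 393 UMIs, of which 285 came from 1 cell and 337 from 3 cells, whereas the 533 Ednrb UMIs were spread over 121 of 132 cells. Of 137 UMIs of Rbp4, a retinol carrier, 117 came from 3 cells, and of the collagen transcripts Col1a1 and Col1a2 3 cells held 67 of 89 and 49 of 71. Endothelial markers summed to 76.0 CPM there, with 5 of 10 at 0 (Tie1, Cldn5, Emcn, Plvap and Tek), and lymphatic endothelial markers to 11.3 CPM with 3 of 6 at 0 (Flt4, Reln and Mmrn1). Over all control macrophage-like cells the sums were 46.1 and 6.86 CPM, against a Lyve1 level of 449 CPM (433 to 465). The lymphatic markers were thus near 0 where Lyve1 was highest.

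Against the monocyte-like cells of the same library, all 7 receptors were at least 2-fold higher in the macrophage-like cells. At this limit 15.2% of 10434 measured genes were called higher and 5.71% lower. The ratio was 12.7 for Lyve1 (9.41 to 17.5), 9.57 for Mrc1 (7.73 to 12.0), 8.82 for Cd36 (5.40 to 15.5) and 6.64 for Folr2 (4.67 to 9.75). Stab1 had 5.03 (4.35 to 5.84), Cd163 4.22 (1.59 to 15.8, from 4 UMIs in the monocyte-like cells) and Msr1 2.24 (1.76 to 2.90). For 6 of the genes, all but Msr1, the monocyte-like level could not be told from the epithelial-like background, so these are ratios to that background. The median log2 ratio of all 7 was 2.73, beside 0.15 over all measured genes.

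Other genes of the same pathways were followed as lists. They took part in the clustering that made the classes, so their ratios describe the classes. Of 9 measured genes of the wider scavenger receptor family, 3 were at least 2-fold higher in macrophage-like than in monocyte-like cells and 1 was lower. Colec12, a collectin scavenger receptor, was 6.01 times higher, whereas Cd68, a lysosomal glycoprotein common to both cell types, had a ratio of 1.01 and Lrp1, a large endocytic receptor, 0.806. Of 16 genes for the uptake of apoptotic cells, 5 were higher and 2 lower, led in level by the complement components C1qa (7.76), C1qb (5.58) and C1qc (7.53) and by Gas6 (8.34). Among 12 measured lectin and uptake genes of resident macrophages, 7 were higher and none lower, including Fcgrt (3.25), which recycles immunoglobulin, while F13a1 was at 1.99 and Clec4a2 at 1.09.

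The lists behind single receptors stand beside the same shares of all measured genes, 15.2% higher and 5.71% lower. Of 9 genes of haem and iron handling downstream of Cd163, 5 were higher and 1 lower, with Hmox1, the haem-degrading enzyme, at 2.11 and Blvrb, which reduces biliverdin, at 4.13. Of 10 lipid genes downstream of Cd36, 3 were higher and 1 lower: the lipid carrier Apoe had a ratio of 2.08, the cholesterol exporter Abca1 4.53, and the droplet protein Plin2 1.18. Of 10 folate genes, 3 were higher and 1 lower, with the mitochondrial enzyme Shmt2 at 1.88 and the lysosomal hydrolase Ggh at 0.669. Of 5 hyaluronan genes, 3 were higher and 1 lower, and the lower gene was Cd44, the main hyaluronan receptor of leukocytes, at 0.351. Endocytosis and lysosome genes split into 6 higher and 12 between the limits, with the protease Lgmn at 3.01 and Ctsb at 2.34. Of 16 transcription factors 3 were higher, close to the share of all genes, 3 lower and 10 between: Maf stood at 5.96, Cebpb at 0.366 and Spi1, which encodes PU.1, at 0.834.

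Within the macrophage-like cells, 6 of the 7 receptors were at least 2-fold higher in the Ednrb than in the Olfml3 cluster, a limit reached by 8.15% of 7800 measured genes. Lyve1 was 21.0 times higher (15.7 to 28.8), Cd36 8.98 times, Cd163 6.64 times, Folr2 6.55 times, Mrc1 4.46 times and Stab1 3.49 times. Msr1, at 1.67 times (1.30 to 2.16), was the exception. In the Olfml3 cluster Cd36 could not be told from the epithelial-like background and Cd163 had few UMIs, so the ratios of both are loosely set. In the same comparison haem handling had 6 of 9 genes higher and none lower, and lectin and uptake genes had 9 of 12 higher and none lower, whereas apoptotic-cell uptake had 3 of 15 higher and 3 lower. Between the Ednrb and the Hmox1 cluster, 2 receptors passed the limit, Lyve1 at 4.59 times (4.02 to 5.25) and Cd163 at 2.13 times (1.23 to 3.82), beside 3.91% of all measured genes. There Mrc1 had 1.75, Folr2 1.72, Msr1 1.40 and Stab1 1.30.

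Dividing macrophage-like cells also carried the receptors. Against the summed Ednrb and Hmox1 clusters, 1 of 7 was at least 2-fold lower, beside 3.86% of all measured genes. That gene was Cd163 at 0.25 (0.135 to 0.435, 16 UMIs), and Cd36 was at 0.530 and Stab1 at 0.626. Lyve1, Folr2 and Mrc1 lay at 0.764, 0.770 and 0.774, and Msr1 at 1.01 (0.868 to 1.18). Against all 4 other macrophage-like clusters the direction turned for Lyve1, at 1.35 (1.26 to 1.45), Folr2, at 1.28, and Mrc1, at 1.22. Msr1 was at 1.22, Stab1 at 0.979 and Cd36 at 0.914, while Cd163 stayed lower at 0.416 (0.226 to 0.718). The median log2 ratio of the 7 was -0.39 in the first comparison and 0.28 in the second.

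For shares of cells, each cell was thinned to 5000 UMIs, which left 524 of 580 control macrophage-like cells. Mrc1 was then found in 84.5% and Stab1 in 85.5% of them, Lyve1 in 52.5%, Msr1 in 44.1%, Folr2 in 43.1%, Cd36 in 35.1% and Cd163 in 4.20%. Without thinning the shares were 89.0%, 94.0%, 62.6%, 64.3%, 59.0%, 49.8% and 8.10%. Control epithelial-like cells thinned alike (98 cells), in which such UMIs are taken as free RNA, had Stab1 in 52.0%, Mrc1 in 34.7%, Lyve1 in 16.3%, Folr2 in 12.2%, Cd36 in 8.16% and Msr1 in 4.08%. Cd163 had a UMI in 0 of 98 cells, which allows a share of cells with a UMI, though not of cells expressing the gene, of up to 3.06% (3 cells of the total). The shares in monocyte-like cells (108 cells) were close to these for Lyve1 (20.4%), Mrc1 (32.4%), Stab1 (49.1%) and Folr2 (13%), while Msr1 had 22.2%.

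Counted per cell, the Ednrb cluster carried the receptors together. At 5000 UMIs, 108 of its 120 cells (90.0%, exact binomial interval 83.2 to 94.7) had UMIs of at least 4 of the 7 genes, and the median cell had 5. In the Hmox1 cluster the share was 54.8% (44.2 to 65.2), in the Olfml3 cluster 8.57% (3.21 to 17.7), in the Isg15 cluster 6.32% (2.35 to 13.2), in monocyte-like cells 2.78% and in epithelial-like cells 2.04%. Over all control macrophage-like cells it was 50.6% (265 of 524, 46.2 to 54.9), and 3 cells had all 7. The share moves with depth, from 33.4% at 3000 UMIs to 66.9% at 8000 UMIs per cell. Each class and cluster was thinned in its own random draw. In the draw of the Ednrb cluster 4 cells had all 7 genes, against the 3 in the draw of the whole class.

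**Figure D2:**
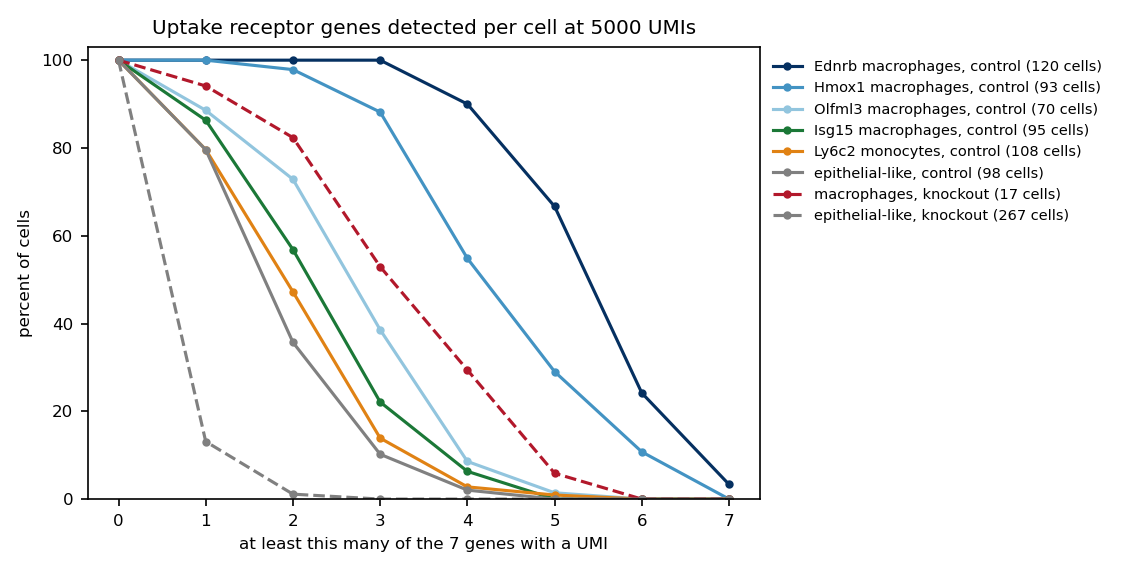
Share of cells (percent) with UMIs of at least the given number of the 7 receptor genes, after thinning to 5000 UMIs per cell; solid lines are the control library and dashed lines the library labelled OGT KO. At 4 genes the Ednrb cluster stands at 90.0%, the Hmox1 cluster at 54.8% and the control epithelial-like cells at 2.04%.

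Across the 524 control macrophage-like cells, Mrc1 and Stab1 had the highest correlation of the 21 pairs (Pearson r of 0.64 on log counts at 5000 UMIs), followed by Lyve1 with Mrc1 (0.60), Lyve1 with Stab1 (0.54) and Lyve1 with Folr2 (0.46). In all, 10 pairs reached 0.2. Cd36 was at 0.27 to 0.34 with Lyve1, Mrc1, Stab1 and Folr2, and no pair with Msr1 or Cd163 reached 0.2. These cells share 1 library and were set to 1 depth, and differences between clusters enter the values. Inside the Ednrb cluster (120 cells) 2 pairs remained above 0.2, Mrc1 with Stab1 at 0.40 and Lyve1 with Mrc1 at 0.21. Inside the Hmox1 cluster (93 cells) 7 pairs reached 0.2, led again by Mrc1 with Stab1 at 0.50 and then Lyve1 with Folr2 at 0.36. In the monocyte-like cells (108) none of the 21 pairs did, nor any of the 15 that could be computed in the epithelial-like cells (98).

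**Figure D3:**
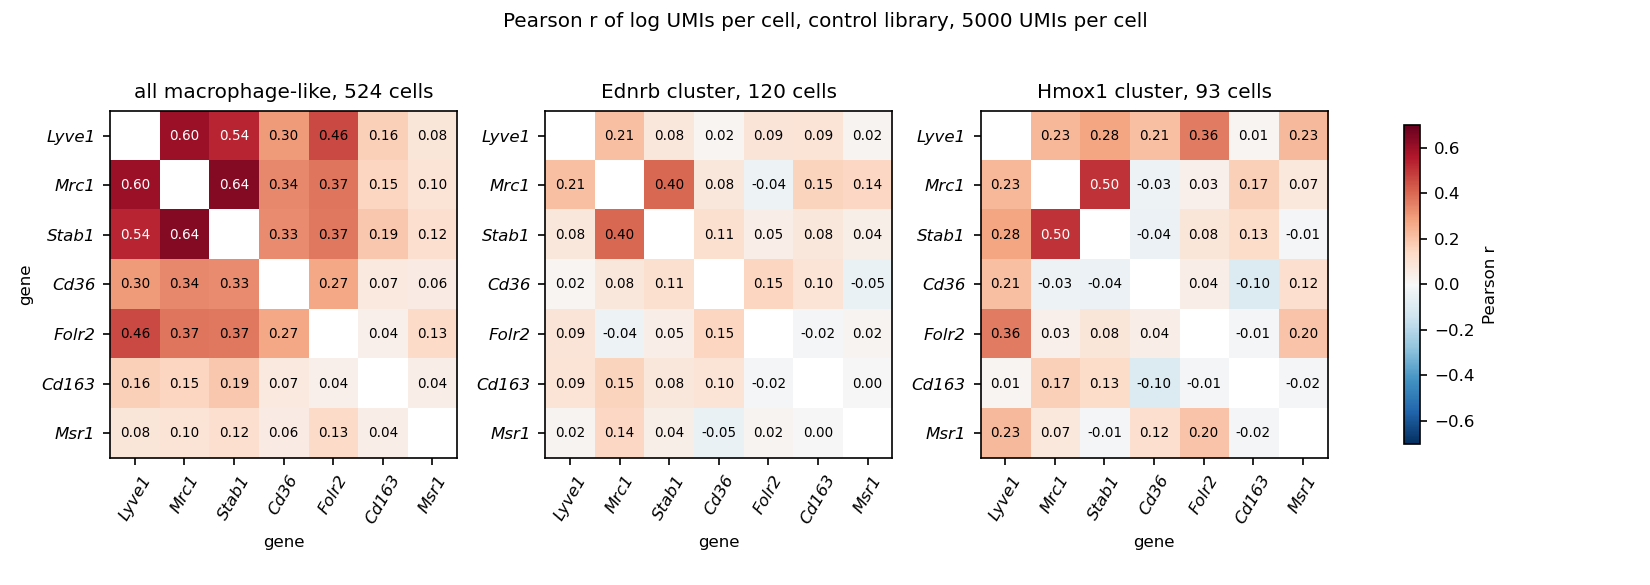
Pearson r between the 7 receptor genes over log UMI counts of control cells thinned to 5000 UMIs, for all macrophage-like cells and for 2 of their clusters; colour runs from blue (negative) to red (positive). Mrc1 with Stab1 keeps 0.40 and 0.50 inside the Ednrb and Hmox1 clusters. Of the 21 pairs, 2 reach 0.2 inside the Ednrb cluster and 7 inside the Hmox1 cluster.

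Taken over all clusters, cells in which Lyve1 was found carried more of most of the others. Of the 524 cells, 275 had a Lyve1 UMI and 249 had none. Folr2 was found in 61.5% of the first and 22.9% of the second, and Cd36 in 49.8% and 18.9%. In summed level, Mrc1 stood at 1012 against 335 CPM, Stab1 at 1164 against 424 CPM, Folr2 at 268 against 65.9 CPM and Cd36 at 165 against 68.3 CPM. Msr1 differed little, with 129 CPM (111 to 150) against 108 CPM (90.2 to 127).

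Outside the list, the gene most like Lyve1, Mrc1, Stab1, Cd36 and Folr2 in the macrophage-like cells was Pf4, a chemokine made by platelets and by fetal and resident macrophages. Its r was 0.66 with Lyve1, 0.68 with Mrc1, 0.66 with Stab1, 0.44 with Cd36 and 0.50 with Folr2, among 5224 genes found in at least 10% of the cells. Gas6 and Dab2, an adaptor of clathrin-coated pits, followed for Lyve1 (0.59 and 0.57) and Mrc1 (0.63 and 0.64). Further genes among the 5 closest were Igfbp4, a binding protein of insulin-like growth factors, for Mrc1 (0.61) and Stab1 (0.54), F13a1, a transglutaminase, for Lyve1 (0.56), Hmox1 and Igf1 for Cd36 (0.35 and 0.35) and the protease Ctsb for Folr2 (0.38). The number of receptor genes found per cell went with Pf4 (0.73), Gas6 (0.63), Dab2 (0.61), Igfbp4 (0.57) and F13a1 (0.48). For Msr1 no gene reached 0.2 in the macrophage-like cells, and Cd163 was found in too few cells to rank. Over all 734 control leukocyte-like cells at this depth Pf4 also led for Lyve1 (0.67), Mrc1 (0.75), Stab1 (0.72) and Cd36 (0.43), while for Folr2 it was second (0.51) to Lyve1 (0.52). Msr1 had 6 genes at or above 0.2 there, with C1qc at 0.21 and Selenop at 0.20.

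Cells of both sexes were present. Of the control macrophage-like cells, 92 had Xist and no Y-linked transcript and 265 the reverse, and 223 could not be placed. Lyve1 was at 424, 475 and 420 CPM in these, Mrc1 at 620, 682 and 653 CPM, and Msr1 at 116, 142 and 113 CPM. In the Ednrb cluster Lyve1 was at 958 CPM (827 to 1104) in 22 Xist cells and at 1180 CPM (1102 to 1261) in 63 cells with Y-linked transcripts. The Hmox1 cluster went the other way, with 395 CPM (306 to 502) in 16 Xist cells and 133 CPM (102 to 169) in 47 cells with Y-linked transcripts, and the Olfml3 cluster had 33.9 and 59.3 CPM. Lyve1 was thus higher in the Ednrb than in the Hmox1 cluster in both sets. In the Hmox1 cluster the 44 cells that could not be placed had 299 CPM (250 to 355). Lyve1 was uneven between cells there: 66 of 107 cells had a UMI, with a median cell at 102 CPM and the highest at 2311 CPM. The intervals leave out this spread between cells, so no difference between the sets is drawn from them. The dividing and Isg15 clusters were not split.

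In the knockout-labelled library 17 cells, 21.0% of its leukocyte-like cells, were macrophage-like, with all 16 macrophage markers detected at a sum of 14099 CPM. Their receptor levels were 436 CPM for Lyve1 (366 to 517, 135 UMIs), 440 CPM for Mrc1 (369 to 520), 559 CPM for Stab1 (479 to 649), 152 CPM for Folr2 (112 to 202), 93.8 CPM for Cd36 (62.8 to 135) and 64.7 CPM for Msr1 (39.5 to 99.9). Cd163 had no UMI. The background was lower in this library: epithelial-like cells had 5.23 CPM of Lyve1, 4.59 CPM of Mrc1, 9.66 CPM of Stab1 and 0.951 CPM of Msr1. The other immune cells were near those values, among them 26 neutrophil-like, 17 lymphoid-like, 13 mast cell- and basophil-like and 8 dendritic cell-like cells. The exceptions above 10 CPM with more than 5 UMIs were Msr1 in neutrophil-like cells (17.5 CPM, 7 UMIs), Mrc1 in dendritic cell-like cells (57.2 CPM, 8 UMIs), and Stab1 and Cd36 in lymphoid-like cells (21.3 and 18.3 CPM, 7 and 6 UMIs).

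Between the libraries, Mrc1 and Msr1 were at least 1.5-fold lower in the knockout-labelled macrophage-like cells, none of the 7 was higher, Lyve1, Stab1, Cd36 and Folr2 lay between the limits, and Cd163, without a UMI, could not be placed. Of 10299 measured genes, 17.2% were called lower and 22.5% higher at this limit. The ratios were 0.664 for Mrc1 (0.556 to 0.788), 0.505 for Msr1 (0.307 to 0.784), 0.724 for Stab1 (0.618 to 0.842), 0.826 for Cd36 (0.549 to 1.20), 0.889 for Folr2 (0.650 to 1.19) and 0.973 for Lyve1 (0.813 to 1.16). For Cd163, 0 UMIs stood against 93, and a floor of 3 counts over the 17 cells gives a ratio of 0.715 or less. The median log2 ratio of the 7, with Cd163 at its bound, was -0.47, beside 0.07 over all measured genes. The call depends on which control cells are taken. The Ednrb cluster was first or level with the first in all 7 receptors, so lower ratios to it and the Hmox1 cluster follow in part from that choice. Against the control Ednrb and Hmox1 clusters alone, all 7 were at least 1.5-fold lower, beside 19.3% of 8420 measured genes, with Lyve1 at 0.614 (0.512 to 0.732), Mrc1 at 0.451, Stab1 at 0.459, Cd36 at 0.465, Folr2 at 0.585, Msr1 at 0.45 and Cd163 at 0.346 or less. Leaving out the Isg15 cluster gave 4 lower genes of 7, a setting for which the share of all measured genes was not computed.

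Acinar markers summed to 5706 CPM in the 17 cells against 2964 CPM in the control macrophage-like cells, and mesenchymal markers to 1093 CPM. Endothelial markers were at 97.0 CPM with 7 of 10 at 0 (Cdh5, Kdr, Tie1, Cldn5, Emcn, Plvap and Tek). The part of these transcripts, of the sort and of the genotype in the ratios was not tested, and genotype and sort cannot be told apart. Among the pathway lists, 7 of 12 lectin and uptake genes and 6 of 16 transcription factors were at least 1.5-fold lower in the knockout-labelled cells. The share of all measured genes called lower was 17.2%. Cebpb stood at 0.432 and Klf2 at 0.530, and all 18 endocytosis and lysosome genes stayed between the limits. Of 9 haem genes 2 were higher, Hmox1 (1.89) among them, a share near the 22.5% of all measured genes.

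**Figure D4:**
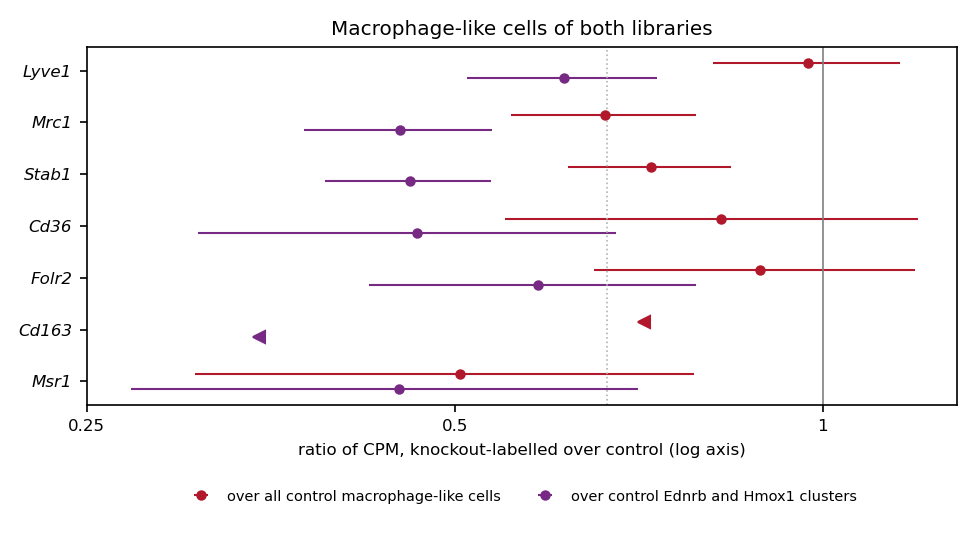
Ratio of summed CPM (log axis) between macrophage-like cells of the library labelled OGT KO and those of the control, with exact 95% intervals (counting error only); red takes all control macrophage-like cells, purple the Ednrb and Hmox1 clusters, the dotted line marks 1.5-fold lower, and arrowheads give the upper limit for Cd163, computed from a floor of 3 counts. Lyve1 lies at 0.973 against all cells and at 0.614 against the 2 clusters, of which the Ednrb cluster had the highest Lyve1 level of the control.

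The 17 cells were not alike. Their Lyve1 UMIs were 37, 32, 19, 19 and 17 in 5 cells, 6, 3, 1 and 1 in 4 further cells and 0 in the other 8, so that 5 cells held 91.9% of the 135. In those 5 cells, chosen for Lyve1, Mrc1 stood at 887 CPM, Stab1 at 1199 CPM and Folr2 at 343 CPM, against 229, 257 and 61.9 CPM in the remaining 12. Cd36 went the other way, with 60.4 against 109 CPM, and 11 of its 29 UMIs came from 1 cell without Lyve1. The cell with 6 Lyve1 UMIs was shallow (9784 UMIs), and 1 cell (5609 UMIs) had no UMI of any of the 7. At 5000 UMIs per cell, 5 of the 17 (29.4%, exact binomial interval 10.3 to 56.0) had at least 4 of the genes. Lyve1 was then found in 35.3%, Mrc1 and Stab1 in 76.5% each, and Cd163 in 0 of 17 cells, which allows a share of cells with a UMI of up to 17.6% by the same limit of 3 cells. In the 267 epithelial-like cells of this library the shares of Lyve1, Mrc1 and Stab1 were 2.25%, 3.37% and 4.49%. Over the 17 macrophage-like cells Mrc1 with Stab1 had an r of 0.76, Lyve1 with Folr2 0.75 and Lyve1 with Stab1 0.72, whereas Mrc1 with Cd36 had -0.41. With so few cells, and 5 of them at the top, these values are descriptions only.

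**Figure D5:**
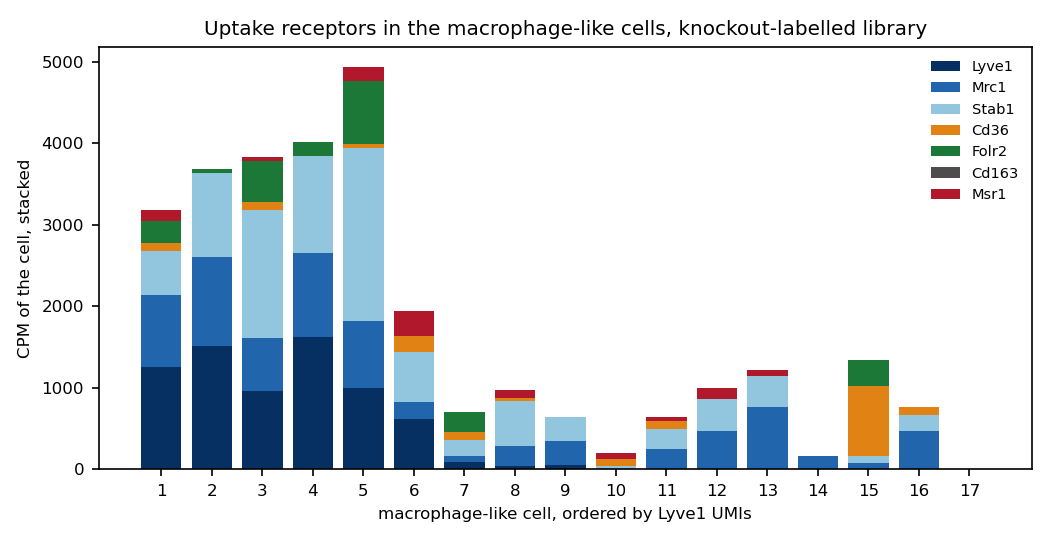
Level of the 7 receptor genes in each of the 17 macrophage-like cells of the library labelled OGT KO, as CPM of the cell, stacked, with cells ordered by their Lyve1 UMIs. Cells 1 to 5, which hold 91.9% of the Lyve1 UMIs, also stand highest in Mrc1, Stab1 and Folr2 together, and cell 17 has none of the 7.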

How the data were processed

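The deposited tables held whole-number UMI counts per gene and cell, with 1 table per genotype. The submitters' processing notes name Cell Ranger 2.0.0, Seurat 2.0, DESeq2 1.14.1 and mm10. Which steps shaped the deposited counts is not given in the sources used here. All columns belonged to the 2 libraries, and their repeat runs could not be separated. Symbols came from GENCODE M21 for 27645 of 27998 identifiers.

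Barcodes needed 500 or more genes and no more than 10% of UMIs from mitochondrial genes, and 5 doublets marked by Scrublet were removed from each library. Cells were clustered with scanpy 1.11.5 (2000 variable genes, 30 components, 15 neighbours, Leiden resolution 1, leidenalg 0.10.2), without the 7 receptors. Leukocyte-like cells were then clustered in each library alone, which was decided after seeing that clustering those of both libraries together left 1 knockout-labelled macrophage-like cell. Clusters were named for whichever marker list had the highest scaled mean, if at least 3 markers reached 50 CPM and 0.25 of their highest level.

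Levels are UMIs summed over cells, as CPM, with exact Poisson, conditional or binomial intervals (scipy 1.17.1). Ratios used genes with at least 20 UMIs over both classes. Calculations were checked on simulated data. The named genes were the 7 receptors, for each the 5 genes with the highest correlation over thinned control cells (at least 0.2), and up to 4 genes per list by level in control macrophage-like cells. Besides these, cluster-leading genes, Ccr2 and Pyy were named after their values were seen. The receptors, lists and markers were chosen with earlier results of these data known. Alternatives covered filters, doublets, resolution, thinning, limits and TMM scaling (edgeR 4.0.16).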

Additional observations from a re-analysis of the deposited data

How the results depend on the processing

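No paired analysis was possible because each genotype had 1 library, and the repeat sequencing runs were not separated in the tables. The count of 7 receptors called higher in macrophage-like than in monocyte-like control cells was the same under all 13 alternatives tried. Among these, the looser limit of 1.5-fold could only return the same count, so it does not test the 2-fold call. A stricter minimum of UMIs was met by all 7 genes. The Isg15 cluster lay below the class level in each gene, so leaving it out could only raise the ratios. Subtracting the same epithelial-like level from both classes raises ratios that are already above 1. None of these could lower the count. The 7 macrophage-like levels stayed above the epithelial-like level under all 8 alternatives tried for them. A stricter minimum of genes per cell entered both sets and the levels below. It left the same 580 control and 17 knockout-labelled macrophage-like cells with unchanged levels, so it tested nothing. Of 161 single levels recomputed, 152 stayed within 1.5 times, 7 began at 0, and 2 moved further, both Cd163 in monocyte-like cells.

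The number of receptors at least 1.5-fold apart between the libraries, 2 as reported, was less firm. It was 5 at Leiden resolution 0.5 and 5 at resolution 2, 4 under TMM scaling, 4 without the Isg15 cluster, 1 (Msr1) after subtracting the epithelial-like level and 0 at a 2-fold limit; with doublets kept it stayed at 2, as Cd163 and Msr1. Clustering both libraries together left 1 knockout-labelled macrophage-like cell, too few for a ratio. As reported, 17.2% of all measured genes were called lower and 22.5% higher. These shares were not computed for the alternatives, so their counts cannot be set against all genes.

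The share of control macrophage-like cells with at least 4 of the 7 genes, 50.6% as reported, was 33.4% at 3000 UMIs, 66.9% at 8000 UMIs and 68.6% without thinning. It was 45.7% with doublets kept (489 cells in the class), 67.8% at resolution 0.5 (418 cells), 59.3% with both libraries clustered together, 59.2% without the Isg15 cluster and 56.0% in Xist cells alone (47 of 84). Depth limits Cd163 most, and the 17 knockout-labelled cells limit every comparison between the libraries. The Isg15-cluster, joint-clustering, epithelial-subtraction, Pyy and sex-transcript alternatives were added after seeing the data.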
